A study of Homo sapiens with 9 samples.

Results

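The cytosolic ribosomal protein genes are the genes whose products form the protein part of the ribosome that translates nuclear-encoded mRNA. Members were taken by symbol from the deposited table: RPL or RPS followed by a number and an optional A or X, plus RPLP0, RPLP1, RPLP2 and RPSA. The rule found 77 of the 34643 genes listed, 46 for the large subunit and 31 for the small subunit. It leaves out FAU, which encodes a ribosomal protein as a fusion with a ubiquitin-like protein and is described with the paralogs. Poly(A)-enriched RNA was sequenced from THP-1, a human monocytic leukemia line labelled wildtype, in 3 groups of 3 libraries. All cells had first received 500 nM PMA, a phorbol ester that drives THP-1 toward a macrophage-like state, for 4 h and were then washed and rested for 24 h. The control group (replicates 1 to 3) had no further treatment, the LPS group (replicates 4 to 6) received 1 μg/mL of lipopolysaccharide, and the LPS+PD group (replicates 7 to 9) received the same LPS with 10 μM of PD, panaxadiol, a ginseng-derived triterpenoid. The model is 1 leukemia line, and how long the cells were kept with LPS or PD is not stated in the labels.

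Ribosomal proteins are needed in near-equal amounts, and their mRNAs are among the most abundant in growing cells. In vertebrates most of them begin with a C followed by a run of C and T bases, the 5′ terminal oligopyrimidine (TOP) tract, through which their translation and stability are tied to mTOR signalling and to the RNA-binding protein LARP1. Proteins of the translation machinery outside the ribosome, such as elongation factors, are encoded by mRNAs with the same tract.

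The depth implied by the FPKM values was 15641356 to 17875224 fragments per library, and each member held 45 to 51825 fragments in a library. FPKM are fragments scaled to gene length and to the size of the library, so a level is relative to the library and not an amount per cell. Of 12 myeloid marker genes 11 had a mean FPKM of at least 1, with summed levels of 961 to 1000 in control, 1930 to 2000 in LPS and 1890 to 1950 in LPS+PD. Epithelial, fibroblast or endothelial, and erythroid markers summed to under 1 FPKM in every library, and 1 of 4 lymphocyte markers reached a mean of 1. With LPS 9 of the 11 myeloid markers rose and 1 fell, with a median log2 change of 1.04, and in LPS+PD against LPS 2 rose and 5 fell, with a median of -0.08; their part in the results was not tested. The myeloid marker under that level was CD68, at no more than 0.31 FPKM in any library. The 6 inflammatory genes used as a check of the LPS labels were all higher with LPS than in control.

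The start-site sequences shown here serve to display the tract that most members carry. The windows hold 15 bases before and 15 bases from a RefSeq start of the gene (GRCh38.p14), on the transcribed strand. Capitals mark a C at the start followed by at least 4 C or T bases. The first 4 belong to members that lay low under LPS, the next 3 to members that fell less, and the last 3 to RPS10, RPS4X and RPS26.
RPL13A: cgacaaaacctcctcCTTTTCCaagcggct
RPS3A: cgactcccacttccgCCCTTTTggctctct
RPL7A: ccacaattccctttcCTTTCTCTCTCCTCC
RPS6: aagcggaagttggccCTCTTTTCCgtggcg
RPLP1: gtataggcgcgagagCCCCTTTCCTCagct
RPL41: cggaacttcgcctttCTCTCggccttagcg
RPS19: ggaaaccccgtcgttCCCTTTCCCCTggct
RPS10: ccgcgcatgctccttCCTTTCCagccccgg
RPS4X: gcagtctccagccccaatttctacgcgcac
RPS26: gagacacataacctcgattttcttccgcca

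The RPL13A window lies at chr19:49487593-49487622 on the plus strand and the RPS26 window at chr12:56041903-56041932 on the plus strand. Of the 77 members 62 were matched to the RefSeq promoter table. Where a gene had several starts listed there, the start with the longest tract was taken, for members and other genes alike. Of the 62 members 46 (74.2%) had the tract at that start. The share was 5.1% of the 27305 genes of the promoter table and 7.7% of the 8975 tested genes matched to it. The windows of RPS4X and RPS26 hold no such tract at that position. As the longest tract was taken, no start listed for them there has it. This says nothing of starts that are not listed.

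Addition of LPS was accompanied by lower levels of nearly every ribosomal protein gene. Together the members held 10.3, 10.4 and 10.3% of the summed FPKM in the control libraries, 6.68, 6.69 and 6.88% in the LPS libraries, and 7.73, 7.24 and 7.19% in the LPS+PD libraries. The 3 groups did not overlap, and replicate 7 was the highest of the LPS+PD libraries. The group values were 10.3 ± 0.031% in control, 6.75 ± 0.12% in LPS and 7.39 ± 0.29% in LPS+PD (SD, n = 3), and the LPS+PD mean was 7.22% without replicate 7. In bulk RNA, fewer cells of a type and less RNA per cell cannot be told apart. The large subunit genes held 5.41 ± 0.044% in control, 3.58 ± 0.073% in LPS and 3.92 ± 0.15% in LPS+PD. The corresponding shares of the small subunit genes were 4.91 ± 0.014%, 3.17 ± 0.044% and 3.47 ± 0.15%. Mitochondrial ribosomal protein genes, which serve the separate ribosome inside mitochondria, held 0.575 ± 0.0081%, 0.561 ± 0.0024% and 0.618 ± 0.0063%.

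**Figure D1:**
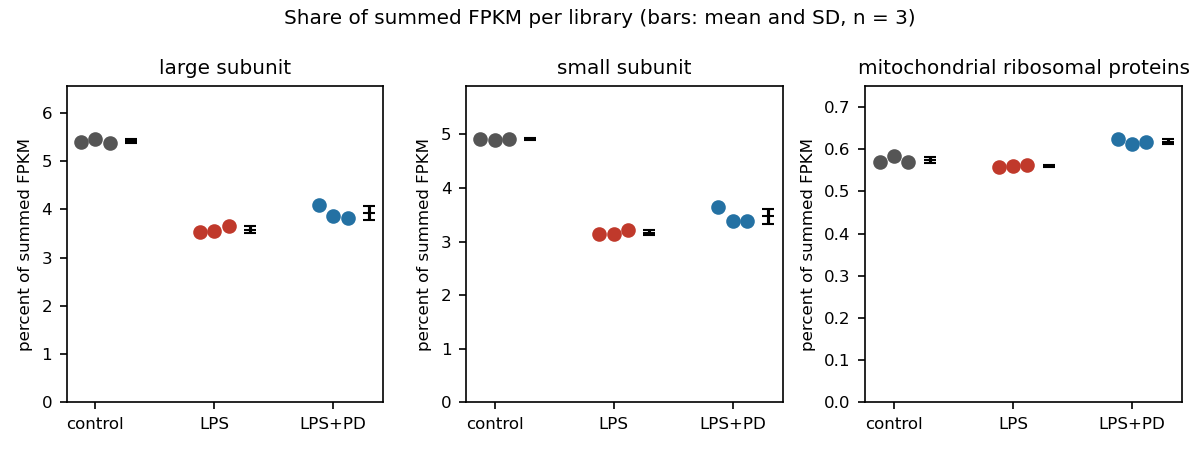
Percent of summed FPKM in each library (points) for the large subunit, the small subunit and the mitochondrial ribosomal protein genes in control, LPS and LPS+PD, with mean and SD (n = 3). The large subunit falls from a mean of 5.41% to 3.58% and the small subunit from 4.91% to 3.17%, with LPS+PD between them, while the mitochondrial genes lie at 0.575% and 0.561% in control and LPS.

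All 77 members passed the filter on low values. Differences were tested with limma on log2(FPKM + 1) over 13692 genes, with p-values adjusted over all of them by the Benjamini-Hochberg method and a threshold of 0.05. Whether the libraries of a group were grown as separate cultures is not stated, and the p-values cover only the spread between libraries, which may be technical. In LPS against control 72 members fell, 3 rose, RPS10 and RPL17 among them, and 2 did not pass the test (RPS26 and RPL36A). Among all genes tested 39.7% fell and 26.4% rose. The median change of the members was -0.64 on the log2 scale, beside a median of -0.08 over all genes. For 72 members every LPS library lay below every control library, against 41.8% of all genes. The level under LPS was 64.1% of the control level for the median member, with quartiles at 59.7 and 70.7%.

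Median-of-ratios scaling of the libraries also gave 72 falls, with a median of -0.51 over the members. That scaling moved the median of all genes from -0.08 to 0.02 and the share of rises among all calls from 40.0 to 53.9%. Quantile normalization gave 70 falls.

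**Figure D2:**
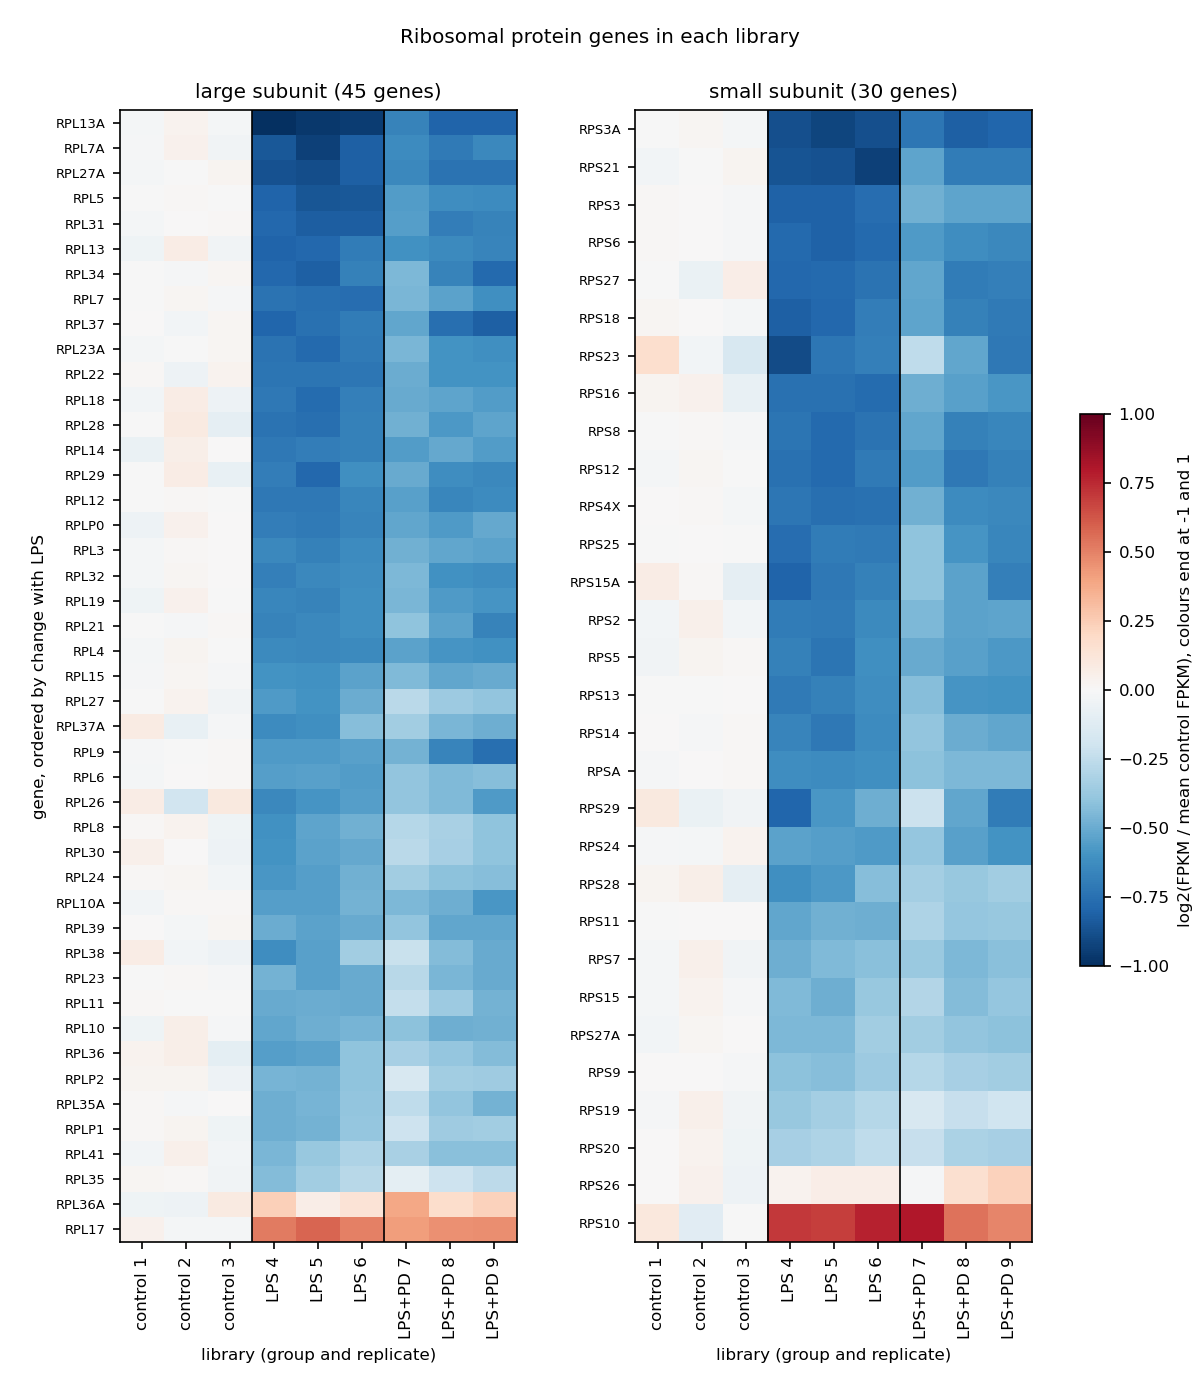
Each row is 1 gene and each column 1 library; colour is log2 of FPKM over the gene's mean control FPKM, with colours ending at -1 and 1, and rows are ordered by the change with LPS within each subunit; 75 of the 77 members are drawn. Nearly all rows are blue in the LPS columns and paler in the LPS+PD columns; RPS10, RPL17, RPL36A and RPS26 form the rows at the bottom that are not blue.

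The lowest changes were those of RPL13A, RPS3A, RPS21, RPL7A, RPL27A and RPL5. RPL13A, a large subunit protein that in human monocytes is also known to leave the ribosome and silence certain inflammatory mRNAs, stood at 1164, 1207 and 1163 FPKM in control and at 587.5, 604.2 and 608.7 in LPS. Its LPS level was 50.9% of control, a log2 change of -0.97 ± 0.037 (SE, adjusted p = 1.51e-08, limma). No LPS library came near a control library. RPS3A, a small subunit protein, went from 495.4, 503.7 and 488.4 FPKM to 269.7, 262.0 and 269.7 (log2 change -0.89 ± 0.029). RPS21, also of the small subunit, changed by -0.88 ± 0.046, and the large subunit genes RPL7A and RPL27A by -0.86 ± 0.037 and -0.85 ± 0.032. These 5 genes fell to lower fractions of control than the median member did.

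RPL5 and RPL11 bind 5S rRNA, and outside the ribosome this particle binds MDM2, the ubiquitin ligase of p53. RPL5 was at 496.2, 503.0 and 496.7 FPKM in control and at 285.5, 275.9 and 277.8 in LPS, a log2 change of -0.83 ± 0.025. RPL11 fell less, from 425.0, 420.7 and 420.1 FPKM to 297.8, 298.4 and 296.9, a log2 change of -0.50 ± 0.048. Relative to the shift shared by the members RPL5 stood at -0.21 and RPL11 at 0.12, both past the threshold; the difference between the pair was not itself tested.

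RPLP0, RPLP1 and RPLP2 form the stalk of the large subunit on which elongation factors act, with RPLP0 as the base that carries the other two. RPLP0 was at 608.7, 647.6 and 633.0 FPKM in control and at 390.0, 385.5 and 397.8 in LPS (log2 change -0.69 ± 0.029). RPLP1 was at 516.9, 521.2 and 498.2 in control and at 364.8, 369.9 and 391.0 in LPS, and RPLP2 at 513.1, 512.6 and 485.6 and at 364.9, 362.7 and 380.5. The changes of RPLP1 and RPLP2 were -0.45 ± 0.044 and -0.45 ± 0.051. All 3 genes fell, and their groups did not overlap.

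RPS6, the small subunit protein phosphorylated by the S6 kinases downstream of mTOR, was at 813.6, 809.6 and 800.2 FPKM in control and at 472.0, 460.3 and 470.9 in LPS (log2 change -0.79 ± 0.025). RPSA, a small subunit protein also known as a laminin receptor, changed by -0.62 ± 0.020, and RPL3, which lies near the peptidyl transferase centre, by -0.65 ± 0.023. RPL22, which is not needed for translation as such, changed by -0.72 ± 0.033, and the X-linked genes RPS4X, RPL10 and RPL39 by -0.74 ± 0.039, -0.49 ± 0.033 and -0.51 ± 0.035. RPS27A, made as a fusion with ubiquitin, changed by -0.41 ± 0.032. All 8 of these genes fell.

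The smallest falls were those of RPS20, RPS19, RPL35, RPL41 and RPS9. RPS20, a small subunit protein, stood at 421.4, 431.2 and 406.9 FPKM in control and at 332.9, 338.4 and 351.7 in LPS (log2 change -0.30 ± 0.035, adjusted p = 5.12e-05). RPS19, the gene most often mutated in Diamond-Blackfan anemia, stood at 295.0, 307.3 and 289.4 FPKM and at 228.5, 235.3 and 243.5 (log2 change -0.33 ± 0.033). RPL41, which encodes a very short basic protein, was at 877.6, 923.0 and 875.3 in control and at 649.5, 684.8 and 721.8 in LPS (log2 change -0.38 ± 0.043). The groups of each of these 3 genes were separate. The call of RPL41 was lost under quantile normalization (change -0.07, adjusted p = 0.0598, limma).

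A group of 6 members had a mean of under 30 FPKM in control, a limit chosen after the values were seen; among them were RPL17 at 4.71, RPL26 at 18.0, RPL36A at 3.17, RPS10 at 1.32 and RPS15A at 24.7. The other 71 members lay between 48.0 and 1377 FPKM. In GENCODE v29 all 6 share exon sequence with another protein-coding gene on the same strand, and 3 further members, RPL36, RPS13 and RPL22, do so too. The shared part is 39.4% of the exon length of RPS10, where the partner is the readthrough gene RPS10-NUDT3, 24.8% for RPL17 (RPL17-C18orf32), 14.3% for RPL26, 8.4% for RPL36A (RPL36A-HNRNPH2) and 3.3% for RPS15A. How fragments that fit several genes were counted is not given in the sources used here, so the levels of these genes are uncertain, and the part of the overlap in their changes was not tested.

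Each member that rose with LPS belongs to those 6. RPS10 was at 1.42, 1.22 and 1.319 FPKM in control and at 2.16, 2.131 and 2.249 in LPS (log2 change 0.46 ± 0.075, adjusted p = 0.000464), and RPL17 at 4.857, 4.641 and 4.641 and at 6.748, 7.057 and 6.701 (log2 change 0.46 ± 0.039). The groups were separate for both. RPL36A did not pass the test at 0.11 ± 0.063 (adjusted p = 0.14), but was called higher under median-of-ratios scaling (0.22, adjusted p = 0.0117, limma) and quantile normalization (0.19, adjusted p = 0.0219). RPL26 and RPS15A fell, by 0.55 and 0.69 on the log2 scale.

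Of the 68 members without such an overlap 67 fell, and RPS26 was the exception. The 68 can still overlap genes of other types or on the other strand. Counted that way, 55.5% of the exon length of RPL10 is shared. Any use of strand is not given, and the part of these overlaps was not tested. RPS26, a small subunit protein that sits at the mRNA exit channel, was at 113.7, 116.5 and 109.0 FPKM in control, 115.7, 118.6 and 118.5 in LPS, and 112.4, 126.5 and 132.6 in LPS+PD. Both treated groups overlapped the control range. The log2 change with LPS was 0.06 ± 0.054 (adjusted p = 0.384, limma). Under median-of-ratios scaling it was called higher (0.19, adjusted p = 0.0163), and in no setting tried was it called lower.

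**Figure D3:**
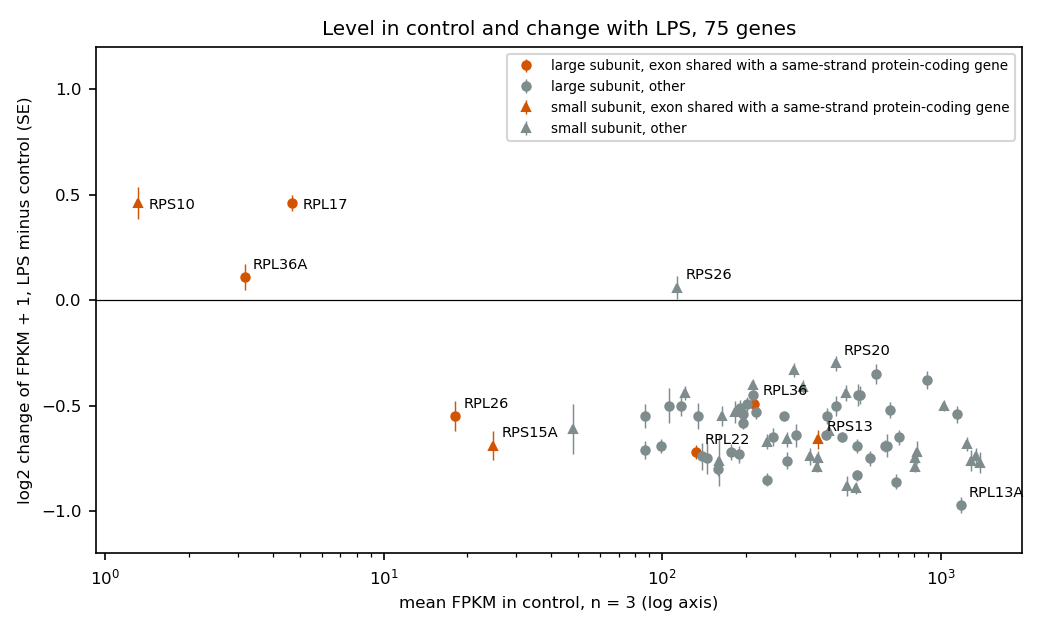
Mean control FPKM (log axis, n = 3) against the log2 change of FPKM + 1 with LPS (SE) for 75 of the 77 members; circles are large and triangles small subunit genes, and orange marks the 8 of them that share exon sequence with another same-strand protein-coding gene. RPS10 and RPL17, which rose, lie under 5 FPKM in control and are orange; RPS26 lies at 113.1 FPKM and near 0.

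The subunits moved by like amounts. With LPS 44 of 46 large subunit genes and 28 of 31 small subunit genes fell, with medians of -0.61 and -0.66. The difference of these medians, large minus small, was 0.06; it was -0.04 under quantile normalization and 0.033 without control replicate 2, so neither its size nor its sign was stable. The ratio of summed FPKM, large over small, was 1.10 ± 0.012 in control, 1.13 ± 0.0077 in LPS and 1.13 ± 0.0098 in LPS+PD. The 46 members with the start tract had a median change of -0.68 and the 16 matched members without it a median of -0.55. Under quantile normalization these medians were -0.50 and -0.49. Median-of-ratios scaling gave -0.54 and -0.42, and a common sum over other genes -0.70 and -0.58. For the 28 members whose gene holds a small nucleolar RNA gene the median was -0.67, and for the other 49 it was -0.55. Under quantile normalization these were -0.52 and -0.47. They were -0.54 and -0.42 under median-of-ratios scaling, and -0.70 and -0.58 with a common sum over other genes. These splits are descriptions of the members and were not tested.

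To find members that left the common shift, the per-library shift shared by the members was subtracted from all genes before the same test. Because the median member defines the reference, departures in both directions arise by construction, and 27 members lay above and 25 below the shared shift in LPS against control; of all genes 74.9% lay above it and 7.54% below it. Among those above it were RPS10 (1.08 ± 0.076), RPL17 (1.08 ± 0.060), RPL36A (0.74 ± 0.068), RPS26 (0.68 ± 0.074) and RPS20 (0.33 ± 0.026). Below it were RPL13A (-0.35 ± 0.025), RPS3A (-0.26 ± 0.028), RPS21 (-0.26 ± 0.041), RPL7A (-0.24 ± 0.036), RPL27A (-0.23 ± 0.028) and RPL5 (-0.21 ± 0.031). The adjusted p of RPL13A was 3.75e-07 and that of RPL5 was 9.92e-05 (limma). RPL13A no longer passed under quantile normalization (-0.07, adjusted p = 0.0606). Apart from the genes of low level and RPS26, departures stayed within 0.35 of the shared shift, beside a median change of -0.64 over the members.

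**Figure D4:**
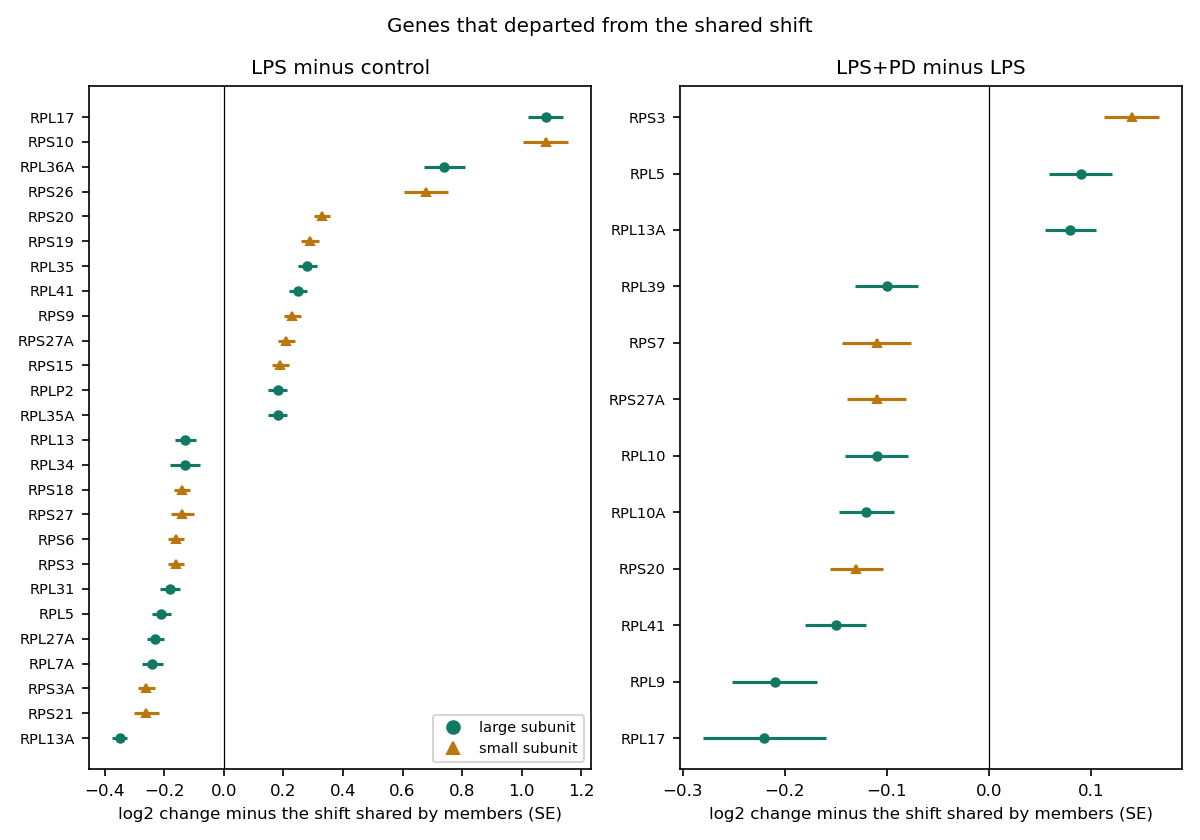
Log2 change minus the shift shared by the members (SE) for genes with an adjusted p below 0.05, showing 13 of those above and 13 of those below in LPS against control on the left and 12 of 13 in LPS+PD against LPS on the right; circles are large and triangles small subunit genes. On the left 4 of the genes drawn stand at 0.68 or more; on the right RPL17 stands lowest of those drawn at -0.22 and RPS3 highest at 0.14.

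With PD added to LPS the members lay higher than with LPS alone, by a small amount that depended on the scaling. This comparison and the previous one share the LPS libraries, so values are set side by side only. In LPS+PD against LPS 43 members rose, 1 fell and 33 did not pass the test, where 23.8% of all genes rose and 13% fell. The median change was 0.13, beside 0.07 over all genes. Under median-of-ratios scaling 7 members rose and 2 fell, with a median of 0.05, where 14.1% of all genes rose and 18.9% fell. That scaling moved the share of rises among all calls from 64.7 to 42.8%. Quantile normalization gave 42 rises and 2 falls, with a median of 0.12, where 20.2% of all genes rose and 14.5% fell. A common sum over other genes gave 45 rises and 1 fall, where 23.9% of all genes rose and 12.7% fell. Without replicate 7, 34 members rose and 2 fell. Replicate 7 was the highest of the LPS+PD libraries for 71 of the 77 members. Among the LPS libraries replicate 6 was the highest for 58, and among the control libraries replicate 2 for 42.

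For 45 members every LPS+PD library lay above every LPS library, against 32.8% of all genes. Among the large subunit genes 26 of 46 rose and none fell, and among the small subunit genes 17 of 31 rose and 1 fell, with medians of 0.13 and 0.14. The control level was not reached by the median member, whose LPS+PD level was 70.4% of control.

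RPS3, a small subunit protein that also acts in DNA repair and binds the NF-κB subunit p65, showed the highest change. It was at 361.7, 360.4 and 357.0 FPKM in control, 205.8, 205.9 and 212.5 in LPS, and 257.4, 249.7 and 249.3 in LPS+PD (log2 change against LPS 0.28 ± 0.023, adjusted p = 2.19e-05). The 3 groups were separate. RPL5 rose as well, with 339.1, 324.9 and 323.1 FPKM in LPS+PD (0.23 ± 0.025), and RPL13A with 739.6, 675.9 and 677.0 (0.22 ± 0.037). RPS21 rose by 0.24 ± 0.046. RPS23, a small subunit protein of the decoding centre, had a change of 0.27 ± 0.12 but did not pass the test (adjusted p = 0.104, limma): its LPS+PD libraries spread from 97.53 to 134.5 FPKM. Without replicate 9 it was called, at 0.38 (adjusted p = 0.0299, limma), and so it was with voom on all 9 libraries, at 0.27 (adjusted p = 0.0138, limma).

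Of the members named for their roles, RPS6 rose by 0.17 ± 0.025, RPSA by 0.18 ± 0.020, RPL22 by 0.17 ± 0.033, RPS4X by 0.16 ± 0.039, RPLP0 by 0.15 ± 0.029 and RPL3 by 0.14 ± 0.023. Under median-of-ratios scaling RPSA alone of these 6 was still called, and RPS6 had 0.09 (adjusted p = 0.0559, limma). RPL11, RPLP1 and RPLP2 were called at 0.14, 0.15 and 0.16, with adjusted p of 0.04, 0.0286 and 0.0366 (limma). These 3 calls were lost without replicate 4, 5 or 7, among other settings, and without replicate 7 the changes were 0.09, 0.10 and 0.10.

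At the low end, RPL17 and RPL9 had changes of -0.08 ± 0.039 and -0.07 ± 0.057 and RPL41 and RPS20 of -0.01 ± 0.043 and 0.01 ± 0.035, none of which passed the test. RPL9, a large subunit protein, was called lower without replicate 7 (-0.15, adjusted p = 0.00978), and RPL17 under median-of-ratios scaling (-0.15, adjusted p = 0.0142). RPS26 had 0.07 ± 0.054 and was called higher without replicate 7 (0.14, adjusted p = 0.0184). RPS27A, RPL39 and RPL10 had a change of 0.03 each and did not pass the test.

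Relative to the shift shared by the members, 3 genes lay above and 10 below in LPS+PD against LPS, where 6.83% of all genes lay above and 22.7% below. Above it were RPS3 (0.14 ± 0.027), RPL5 (0.09 ± 0.031) and RPL13A (0.08 ± 0.025). Among those below were RPL17 (-0.22 ± 0.060), RPL9 (-0.21 ± 0.042), RPL41 (-0.15 ± 0.030), RPS20 (-0.13 ± 0.026) and RPL10A (-0.12 ± 0.027). RPL17 lost its call in the fit of 2 groups (adjusted p = 0.0616), with voom (0.0715) and without replicate 4, 5 or 7 (0.0578, 0.096 and 0.0676). RPS20 lost it under quantile normalization (-0.06, adjusted p = 0.102). The calls of RPL5 and RPL13A were lost in the fit of 2 groups (adjusted p = 0.0931 and 0.0967, limma) and without replicate 1, 5, 6, 8 or 9, and that of RPL13A also without replicate 4 or 7. Leaving out control replicate 1 or replicate 5, 6, 8 or 9 left 1 gene above the shift, and leaving out replicate 4, 5 or 8 left 6 below it. The departure of RPL13A had the opposite sign under quantile normalization (-0.03, adjusted p = 0.477, limma).

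LPS+PD against control shares its libraries with both comparisons. In it 72 members were lower, 4 were higher, RPS10, RPL17 and RPL36A among them, and RPS26 did not pass the test (0.13 ± 0.054, adjusted p = 0.0745, limma); of all genes 28.7% were lower and 26% higher. The median change was -0.51, beside -0.02 over all genes. The lowest were RPS3A (-0.78 ± 0.029), RPL13A (-0.76 ± 0.037), RPL27A (-0.70 ± 0.032), RPL37 (-0.69 ± 0.065), RPL7A (-0.66 ± 0.037) and RPS12 (-0.65 ± 0.040). RPL35 was the highest of the members that fell (-0.19 ± 0.048, adjusted p = 0.0085); under quantile normalization it stood at 0.12 (adjusted p = 0.0835). RPL36A lost its call without replicate 1, 2 or 7, and RPS26 was called higher without replicate 7 (0.20, adjusted p = 0.00196, limma). RPS26 was also called higher under median-of-ratios scaling (0.18, adjusted p = 0.0274, limma). The same held with library weights (0.14, adjusted p = 0.0463, limma) and with voom (0.13, adjusted p = 0.0238, limma). Against the shared shift 23 members lay above and 21 below, where 74.4% and 4.89% of all genes did.

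Other mRNAs known for a TOP tract moved alongside the ribosomal protein genes. In a list chosen with earlier results of these data known, 16 of 17 tested genes fell with LPS and 1, VIM, rose. The median of the list was -0.53, and 39.7% of all genes fell and 26.4% rose. EIF4B, an initiation factor, went from 82.77, 79.45 and 80.95 FPKM to 44.29, 43.09 and 40.48 (log2 change -0.91 ± 0.034). EIF3L, a subunit of initiation factor eIF3, changed by -0.80 ± 0.027, and EEF1A1, the elongation factor that brings tRNA to the ribosome, by -0.63 ± 0.023. VIM, which encodes the filament protein vimentin, was at 10.17, 11.37 and 10.68 FPKM in control and at 36.44, 36.34 and 37.91 in LPS (log2 change 1.69 ± 0.048). In LPS+PD against LPS 14 of the 17 rose and VIM fell, where 23.8% of all genes rose and 13% fell. Under median-of-ratios scaling 3 rose and 1 fell, where 14.1% of all genes rose and 18.9% fell.

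Noncoding genes that host small nucleolar RNAs and are likewise known for a TOP tract showed 5 falls and 1 rise among 6 with LPS. Their median was -0.37, and 39.7% of all genes fell and 26.4% rose. SNHG6 changed by -0.69 ± 0.027 and GAS5 by -0.34 ± 0.028, whereas SNHG1 rose by 0.37 ± 0.035. Relative to LPS alone, the LPS+PD libraries had more SNHG6 (0.25 ± 0.027) and less GAS5 and SNHG1 (-0.12 ± 0.028 and -0.15 ± 0.035).

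Among 8 tested paralogs and ubiquitin-type fusions 4 fell and 3 rose with LPS, where 39.7% of all genes fell and 26.4% rose. FAU, the source of the small subunit protein eS30, was at 248.4, 265.0 and 240.6 FPKM in control and at 198.0, 196.9 and 211.2 in LPS (log2 change -0.31 ± 0.046). Under median-of-ratios scaling 2 of the 8 fell, where 30.1% of all genes did. The paralog RPS27L changed by -0.65 ± 0.070 and the paralog RPL26L1 by 0.37 ± 0.074. With PD added 2 rose relative to LPS, RPL39L (0.38 ± 0.10) among them, where 23.8% of all genes rose. For 0 of the 8 did every LPS+PD library lie above every LPS library, against 32.8% of all genes. For 2 of the 8 every LPS+PD library lay below every LPS library, as for 2414 of the 13692 genes tested. Under median-of-ratios scaling 1 rose and 2 fell, where 14.1% of all genes rose and 18.9% fell.

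The mitochondrial ribosomal protein genes, of which 77 were tested, showed 15 rises and 22 falls with LPS, with a median of -0.00. Among all genes 26.4% rose and 39.7% fell. Under median-of-ratios scaling 33 mitochondrial genes rose and 14 fell, with a median of 0.11, where 35.2% and 30.1% of all genes did. With PD added to LPS, 26 of the 77 rose and 1 fell, where 23.8% and 13% of all genes did. Under median-of-ratios scaling 8 rose and 4 fell, where 14.1% of all genes rose and 18.9% fell. The median of the mitochondrial genes with PD added, 0.13, was that of the cytosolic genes.

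Pseudogenes of ribosomal proteins carry near-identical sequence, so fragments of a member can be counted at a pseudogene or the reverse. Of 562 listed 90 were tested, and with LPS 53 fell and none rose, where 39.7% of all genes fell and 26.4% rose. Under median-of-ratios scaling, where 30.1% of all genes fell and 35.2% rose, 42 of the pseudogenes fell and 3 rose. Their median was -0.52, and -0.43 under that scaling. They held 1.80 ± 0.022% of the summed FPKM in control, 1.17 ± 0.017% in LPS and 1.27 ± 0.019% in LPS+PD, which moved with the members; their part in the members' levels was not tested.

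Among 17 chaperones of ribosomal proteins and late assembly factors 10 rose, 1 fell and 6 did not pass the test with LPS, with a median of 0.21, where 26.4% of all genes rose. Under median-of-ratios scaling 14 of the 17 and 35.2% of all genes rose. BYSL, a factor of small subunit assembly, was at 14.92, 16.44 and 14.5 FPKM in control and at 25.76, 23.96 and 25.32 in LPS (log2 change 0.68 ± 0.051). LTV1, which acts in the same pathway, rose by 0.59 ± 0.052, and SBDS, which takes part in the release of eIF6 from the large subunit, by 0.54 ± 0.047. With PD added, NOB1 rose and SBDS fell (-0.20 ± 0.047), and 15 did not pass the test, where 23.8% of all genes rose and 13% fell. Under median-of-ratios scaling none rose and 4 fell, where 14.1% of all genes rose and 18.9% fell.

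Of 14 genes of the mTOR and LARP1 pathway and other regulators, 4 rose and 4 fell with LPS, where 26.4% of all genes rose and 39.7% fell. Their median was -0.05, and 0.07 under median-of-ratios scaling with 5 rises and 4 falls, where 35.2% of all genes rose and 30.1% fell. MYC, a transcription factor that drives ribosomal protein genes, was at 65.41, 67.79 and 66.9 FPKM in control, 50.49, 48.23 and 46.29 in LPS, and 54.28, 53.06 and 55.24 in LPS+PD. The 3 groups were separate; the change was -0.46 ± 0.034 with LPS and 0.16 ± 0.034 in LPS+PD against LPS. EIF4EBP1, which encodes the translation repressor 4E-BP1, changed by -0.42 ± 0.065 and 0.50 ± 0.065. MTOR, the kinase, and RPTOR, its partner in mTORC1, rose with LPS by 0.28 ± 0.038 and 0.41 ± 0.063 and did not pass the test in LPS+PD against LPS (0.08 and 0.06). With PD, 7 of the 14 rose and none fell, where 23.8% of all genes rose and 13% fell. Under median-of-ratios scaling 2 rose and 1 fell, where 14.1% of all genes rose and 18.9% fell. MYC lost its call under that scaling (0.08, adjusted p = 0.10, limma).

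**Figure D5:**
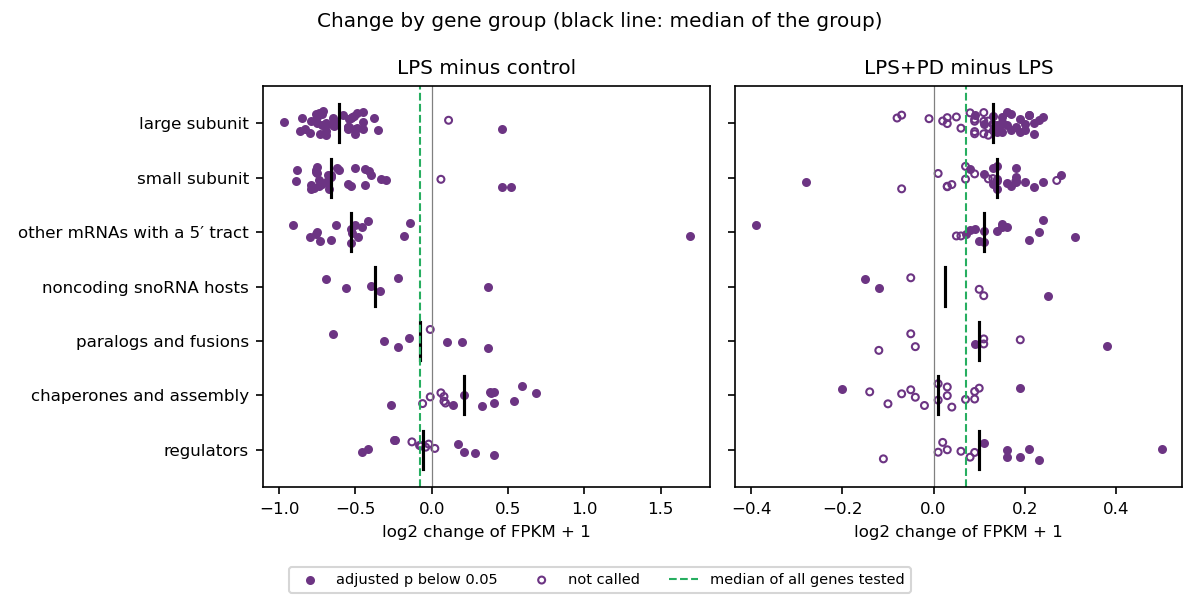
Log2 change of FPKM + 1 for each tested gene of 7 groups in LPS against control (left) and LPS+PD against LPS (right); filled points had an adjusted p below 0.05, black lines are group medians and the dashed line is the median of all genes tested. On the left the subunits have medians of -0.61 and -0.66 and the chaperones and assembly factors 0.21; on the right the subunits have medians of 0.13 and 0.14 beside 0.07 for all genes.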

How the data were processed

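The authors deposited 1 table of FPKM values with 1 column per library. Per the submitters' processing notes the tools were StringTie, HISAT2, FastQC and bcl2fastq, with build GRCh38 and no versions. The rule for assigning fragments to genes, and any use of strand, is not given in the sources used here, so levels of near-identical and overlapping genes are uncertain. Of the gene IDs 99.8% were in GENCODE v29. With total exon lengths, 97.8 to 98.0% of nonzero values below a set fragment number corresponded to whole fragments within 0.05, which gave the depth. Most members lie above that number and were not part of that share. FPKM hold no counting interval of their own, and fragments without molecular identifiers are not independent molecules.

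Groups follow the sample titles. Genes reaching an FPKM of 1 in 3 or more of the 9 libraries were tested with limma 3.58.1 (R 4.3.3) on log2(FPKM + 1), with an intensity trend, 3 group means in 1 model and Benjamini-Hochberg adjustment over all 13692 genes within each of 3 comparisons; fold changes on this scale understate those of low genes. For departures, each member was centred on its mean over libraries, and the median of the centred members in a library was subtracted from all genes; the wording first planned, the median of uncentred levels, called unchanged members on simulated data and was kept as an alternative. Tests were tried on simulated data with known changes.

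Members and lists were chosen with earlier results of these data known. Named genes were the 6 highest and 6 lowest changes per comparison, up to 6 called departures per direction, 15 members fixed by name and up to 4 genes per list by smallest p; RPL26, RPS15A, RPL36, RPS13, RPS9 and RPS19 were named after their values were seen. Alternatives were a pseudocount of 0.1, no filter, a filter at FPKM 5, median-of-ratios scaling, quantile normalization, a common sum over other genes, fits of 2 groups, a robust spread, library weights and leaving out each library. A voom fit on recovered fragments and the uncentred reference were added after seeing the data. Some genes that the naming rule takes are not reported here by name, and 2 members are not drawn where genes are labelled or plotted by level.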

Additional observations from a re-analysis of the deposited data

How the results depend on the processing

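Counts of members that fell with LPS (70 to 72) and in LPS+PD against control (68 to 72) kept within 1.5 times under all alternatives. The number that rose was 1 (LPS) and 1 (LPS+PD against control) with a filter at FPKM 5, which leaves 74 of the 77 members, and 5 with LPS under median-of-ratios scaling. In LPS+PD against LPS the rises numbered 7 under median-of-ratios scaling and 29 to 46 when a library was left out. They numbered 42 under quantile normalization and 45 with a common sum over other genes. The falls numbered 0 with the filter at FPKM 5 and 2 under median-of-ratios scaling. They numbered 2 under quantile normalization and 1 to 2 with a library left out. The cause was not tested.

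The difference of subunit medians, large minus small, was 0.06 with LPS, -0.04 under quantile normalization, 0.033 with the filter at FPKM 5 and 0.033 to 0.063 with a library left out. In LPS+PD against LPS it was -0.005, 0.018 under quantile normalization and -0.016 to 0.003 with a library left out; in LPS+PD against control it was -0.015, -0.035 under quantile normalization and -0.039 to 0.023 with a library left out, positive without replicate 7 (0.023).

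Of the departures from the shared shift in LPS+PD against LPS, below it were 5 genes in the fit of 2 groups, 19 with library weights and 6 to 10 with a library left out. Above it were 1 without a filter, 1 in the fit of 2 groups, 8 under quantile normalization, 8 with library weights, 5 with voom, 5 with the uncentred reference and 1 to 3 with a library left out. Over 109 results on single genes, 1981 of 2056 values kept their side of the threshold, 59 lost the call and 14 gained it. For 2 values a called result changed sign, both under quantile normalization. They were RPL35 in LPS+PD against control (0.12) and the departure of RPL13A in LPS+PD against LPS (-0.03). A change of sign between values that were not called was not counted as a reversal. No paired analysis was possible because the replicate numbers run from 1 to 9 and no group shares one with another. With 3 libraries a group, changes near 0.1 were at the limit of what was called.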
